A study of Homo sapiens with 18 samples.

Results

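The question addressed here was which genes answered the PARP inhibitor olaparib differently in MDA-MB-231 cells with and without TRIM27. MDA-MB-231 is a human cell line from a triple-negative breast cancer, with a mesenchymal character. RNA sequencing was available for wild-type cells and for TRIM27 knockout cells, each untreated or kept in 2 µM olaparib for 24 h, with 3 libraries in each of these 4 groups. These are 12 of the 18 libraries of the series, and the other 6 received an siRNA against PARP1. The members are all genes with at least 1 FPKM (fragments per kilobase of transcript, scaled to the library's mapped fragments) in at least 3 of the 12 libraries, which gave 15286 of the 62830 genes listed. For each gene the change with olaparib in wild-type cells was subtracted from the change in knockout cells on the log2(FPKM + 1) scale. This difference is called the interaction below. It is positive where the knockout response was the higher one, either a larger rise or a smaller fall. Among protein-coding genes the filter was narrowly passed by HRCT1 and RBM11 (third-highest value of 1 FPKM) and narrowly missed by ALG14 (0.9979) and ZNF517 (0.9968). All libraries carry the same batch label. None is labelled as having received DMSO, so the untreated cells of each genotype served as its control. The labels do not say whether the knockout line is 1 clone, nor whether replicate libraries stem from different cultures. The p-values therefore measure the spread between these libraries, which may be technical.

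PARP1 and PARP2 are nuclear enzymes that bind DNA breaks and attach chains of ADP-ribose to themselves and to nearby proteins. Olaparib occupies their catalytic site and holds them on DNA, so that replicating cells meet lesions that need homologous recombination for repair. TRIM27 is a RING-finger ubiquitin ligase of the tripartite motif family, with described roles in transcriptional repression, in endosomal sorting with the WASH complex and in inflammatory signalling.

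The labelled cell line was checked against its markers. The mesenchymal genes VIM, ANXA1 and CAV1 were the highest of 8 markers of the line, of which all 8 passed the filter. The oestrogen receptor gene ESR1 stayed at 0.05 to 0.262 FPKM, PGR was listed at 0 in all 12 libraries, and the epithelial cadherin CDH1 did not exceed 0.0703 FPKM. Against their place on a list of luminal markers absent from the line, the keratin KRT8 was high, at 890 to 1580 FPKM, and GATA3 and ERBB2 stood at 14.2 to 31.6 and 14.4 to 19.6 FPKM. Leukocyte markers were low, with 6 of 14 listed at 0 in all 12 libraries, among them CD3E, CD2, MS4A1, ITGAX and TYROBP. Their summed level, carried mainly by CD68 and HLA-DRA, was 13.9 to 24.7 FPKM in untreated wild-type, 10.5 to 26 in untreated knockout, 8.37 to 16.3 in treated wild-type and 7.58 to 14 in treated knockout libraries. The files give no read counts and the depth is unknown: among low genes, only 49 to 86 of 5855 to 6739 in a library shared the most frequent ratio to wild-type library 1, too few to read a relative depth from. Genes encoded in mitochondria held 19 to 22.1% of the FPKM summed over named genes in untreated libraries and 23.5 to 25.4% under olaparib. Of the FPKM summed over all loci, those without a gene name held 47.8 to 49.8% in untreated libraries. Under olaparib they held 46 to 47.3% in the wild type and 44.2 to 45.9% in knockout libraries. The part of these levels and shares in the results was not tested. Values come from whole cultures, in which fewer cells of a kind and less RNA per cell cannot be told apart.

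TRIM27 itself was measured at 1.18, 1.51 and 1.65 FPKM in untreated wild-type cells and at 0.665, 0.547 and 0.658 FPKM in knockout cells. Under olaparib wild-type libraries had 1.27, 1.5 and 1.41 FPKM and knockout libraries 0.555, 0.681 and 0.65 FPKM. Every knockout library lay below every wild-type library, and TRIM27 transcripts were reduced rather than absent in the knockout. Its interaction was 0.033 ± 0.118 (log2, SE; adjusted p = 0.924). The drug targets fell in both genotypes. PARP1 went from 56.2 ± 2.57 to 38.8 ± 2.74 FPKM (SD over 3 libraries) in wild-type cells and from 55.2 ± 3.7 to 40.1 ± 1.23 in knockout cells. PARP2 went from means of 21.8 to 13.8 FPKM and from 24.7 to 14.8 FPKM. Neither response was called different between the genotypes (interactions of 0.071, adjusted p = 0.756, and -0.082, adjusted p = 0.738). PAX6, a transcription factor named in the study's design, was under the filter. It was at 0.331 to 0.501 FPKM in untreated wild-type and 0.934 to 1.18 FPKM in untreated knockout libraries, and at 0.109 to 0.337 and 0.104 to 0.436 FPKM under olaparib. In a fit without the filter its interaction was -0.47 ± 0.157 (adjusted p = 0.296), which is no call.

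Most of the response to olaparib was shared, and a different response by genotype was called for a minority of genes. Olaparib changed 7052 genes in wild-type cells (46.1% of those tested) and 7393 in knockout cells (48.4%) at an adjusted p under 0.05. Of the 5442 genes called in both genotypes, 5375 moved in the same direction. The interaction was called for 399 genes, 2.61% of those tested. Of these, 178 were positive (1.16%) and 221 negative (1.45%). Without adjustment, 2569 genes (16.8%) had a p under 0.05. The median size of a called interaction was 0.47 on the log2 scale, and 30 genes differed by at least 1 (18 positive, 12 negative). The calls come from limma with 8 residual degrees of freedom. Leaving out any 1 of the 12 libraries reduced them to between 77 and 122 positive and between 103 and 157 negative, and 146 genes were called in all 12 of these fits. With transcript values turned into fragments before summing, an alternative added after the data were seen and possible for 11613 genes, 380 were positive and 397 negative. Of 3561 genes whose response was called in 1 genotype and not in the other, 166 (4.66%) had a called interaction.

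**Figure D1:**
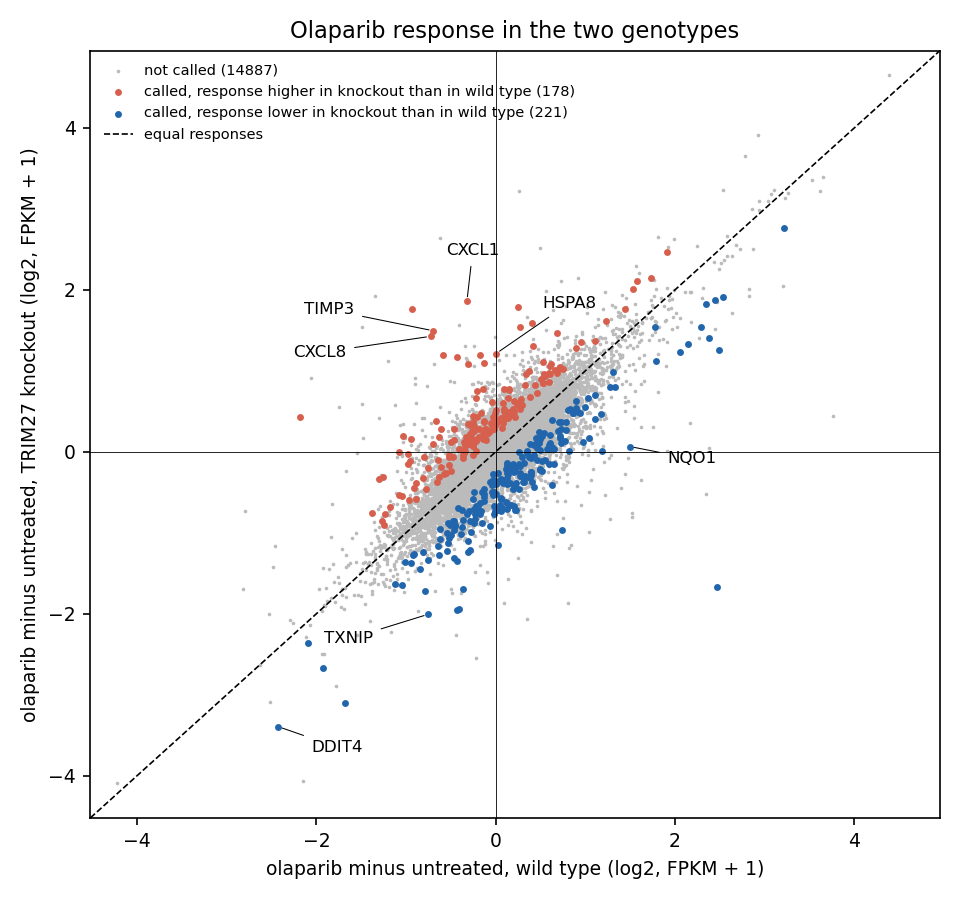
Change with olaparib in wild-type cells (horizontal axis) against the change in TRIM27 knockout cells (vertical axis), both in log2 of FPKM + 1, for the 15286 genes tested. Grey points are genes without a called interaction, red and blue points the 178 positive and 221 negative called genes, and the dashed line marks equal responses. Most genes lie along the line, while CXCL1, CXCL8 and TIMP3 fell in wild-type cells and rose in knockout cells.

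Across the 15286 genes the knockout response had a least-squares slope of 0.835 on the wild-type response, with r = 0.809, given as a description since genes are not independent replicates. The reverse slope, wild type on knockout, was 0.784. The spread of the responses was similar, with an SD over genes of 0.495 in the wild type and 0.512 in knockout cells. The median interaction over all genes was -0.004.

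The called genes were mainly genes that already differed between the genotypes before treatment and whose difference shrank under olaparib. The difference between knockout and wild type was smaller under olaparib than without it for 296 of the 399 genes (74.2%), beside 56.4% of all genes tested. Of the 178 positive genes, 165 were lower in untreated knockout than in untreated wild-type cells, and for 142 of them this difference was itself called. Of the 221 negative genes, 198 were higher in untreated knockout cells, 169 of them with a call. As the untreated libraries enter both the interaction and this difference, the counts are a description of the pattern and not a separate test. Knockout and wild type differed in 3091 genes without treatment (20.2% of those tested, 9.7% higher and 10.5% lower in the knockout) and in 1917 under olaparib (12.5%, 5.59% higher and 6.95% lower). These splits moved with the scaling: under TPM scaling 1800 genes were higher and 1189 lower without treatment, and 1130 higher and 762 lower under olaparib, where the main values were 1483 and 1608, and 854 and 1063.

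Sorted by these calls, 212 genes had a genotype difference without treatment that was no longer called under olaparib. For 84 genes it was called in both conditions with the same sign, for 37 with opposite signs, for 63 only under olaparib, and for 3 in neither. The absence of a call under olaparib does not show that the genotypes were equal there. The responses of the 399 genes were of all kinds: 104 moved in the same direction in both genotypes and further in the knockout, 68 in the same direction and less far, and 61 in opposite directions. A response was called only in knockout cells for 95 genes and only in wild-type cells for 71. Protein-coding genes made up 334 of the 399, and 21 were among the 966 tested loci without a gene name. The share of protein-coding genes among all genes tested is not given here.

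**Figure D2:**
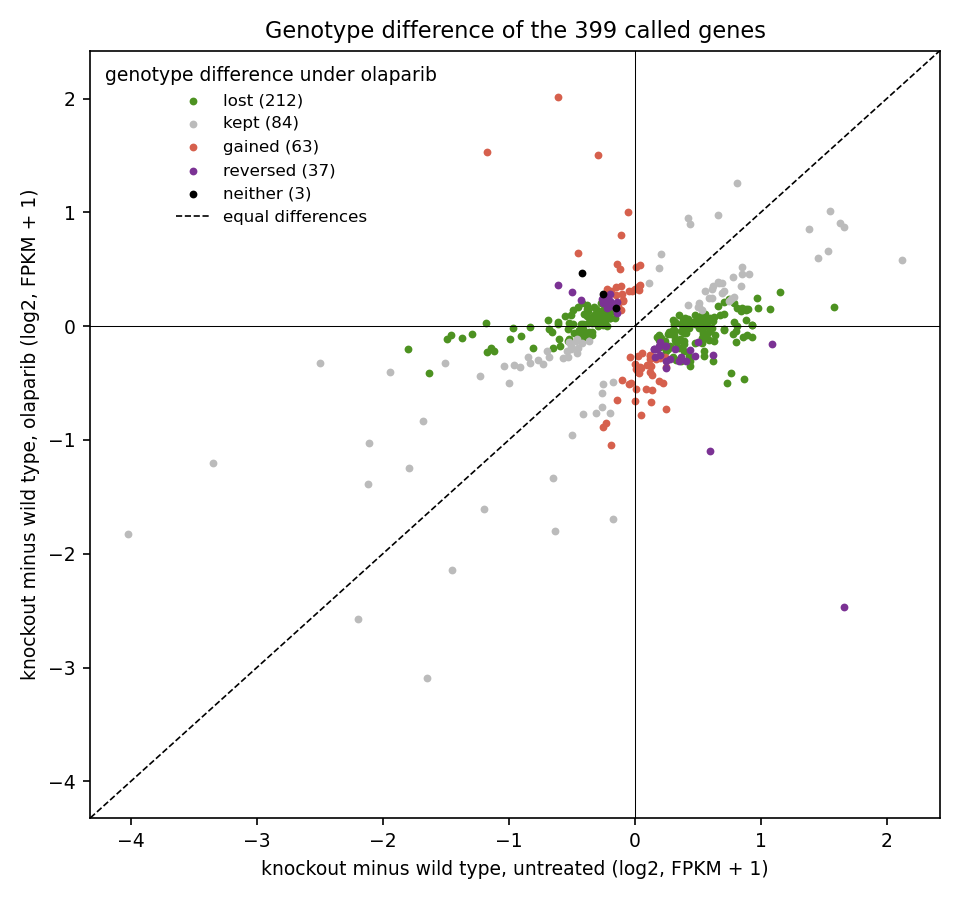
Knockout minus wild type in untreated cells (horizontal axis) against knockout minus wild type under olaparib (vertical axis), in log2 of FPKM + 1, for the 399 genes with a called interaction. Green points are the 212 genes whose untreated difference was no longer called under olaparib, grey points the 84 that kept it, red points the 63 that gained one, purple points the 37 that reversed and black points the 3 called in neither condition. The green points lie in a band near 0 on the vertical axis.

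Inflammatory cytokine genes gave the highest interactions among the gene groups. NF-kB is a transcription factor that is held in the cytoplasm by inhibitors such as IκBα and, once freed, binds short sites near the start of cytokine, chemokine and survival genes. Of 21 tested genes on a list of NF-kB targets and cytokines, 10 had a positive called interaction and none a negative one. The list's median interaction was 0.42, beside -0.004 for all genes. Of all genes tested, 1.16% were called positive and 1.45% negative, the background for this list and for those below. The chemokine and IL6 promoters are shown because these genes have the highest interactions on the list among genes called in all 12 fits without 1 library. Each line is the 250 bases before the RefSeq gene start (GRCh38.p14), 5′ to 3′ on the gene's strand, with matches to the NF-kB letters GGNNTTTCC, searched on both strands, in capitals.
CXCL1 (chr4:73869143-73869392, plus strand): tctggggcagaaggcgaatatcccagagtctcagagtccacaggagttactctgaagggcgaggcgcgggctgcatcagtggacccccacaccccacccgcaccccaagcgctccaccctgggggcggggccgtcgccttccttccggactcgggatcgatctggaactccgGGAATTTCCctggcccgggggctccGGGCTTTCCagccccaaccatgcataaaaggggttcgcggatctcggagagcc
CXCL2 (chr4:74099196-74099445, minus strand): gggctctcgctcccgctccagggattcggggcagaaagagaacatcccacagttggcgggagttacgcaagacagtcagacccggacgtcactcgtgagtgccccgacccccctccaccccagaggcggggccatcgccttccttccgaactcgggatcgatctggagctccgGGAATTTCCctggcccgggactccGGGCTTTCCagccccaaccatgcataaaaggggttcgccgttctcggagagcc
CXCL8 (chr4:73740319-73740568, plus strand): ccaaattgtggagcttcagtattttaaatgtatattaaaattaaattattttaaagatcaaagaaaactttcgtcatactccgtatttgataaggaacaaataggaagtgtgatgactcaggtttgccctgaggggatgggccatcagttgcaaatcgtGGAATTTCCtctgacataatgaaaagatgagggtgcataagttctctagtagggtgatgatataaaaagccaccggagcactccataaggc
IL6 (chr7:22726950-22727199, plus strand): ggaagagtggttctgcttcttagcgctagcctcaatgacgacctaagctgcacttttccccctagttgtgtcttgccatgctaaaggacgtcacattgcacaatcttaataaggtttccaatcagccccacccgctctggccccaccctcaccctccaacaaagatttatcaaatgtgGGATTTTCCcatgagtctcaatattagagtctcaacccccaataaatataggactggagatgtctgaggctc
CXCL1 and CXCL2 hold 2 matches each, beginning 78 and 53 and 77 and 53 bases before the start. CXCL8 and IL6 hold 1 match each, at 91 and 72 bases. The same letters occur in 5.48% of the 35116 RefSeq promoter windows. On the list, 12 of the 17 tested genes with a promoter window held a match. A match describes the letters in the window and not binding of the factor.

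CXCL1, a chemokine that draws neutrophils, had 44.6, 43.6 and 41.8 FPKM in untreated wild-type cells and 34.4, 35.7 and 33.4 FPKM under olaparib. In knockout cells it had 6.86, 6.66 and 6.99 FPKM without treatment and 26.2, 27.8 and 28.6 FPKM with the drug. The untreated knockout libraries thus lay far below all others, and the treated knockout libraries lay closer to, but still below, the treated wild-type ones (knockout minus wild type -0.32, adjusted p = 0.00191). The drug response was -0.32 in the wild type and 1.86 in knockout cells, and the interaction was 2.19 ± 0.067 (log2, SE; adjusted p = 1.32e-07). CXCL8 (interleukin 8), the best known neutrophil chemokine, had 23.1, 22.9 and 23 FPKM in untreated and 13.4, 14.3 and 12.8 FPKM in treated wild-type cells. In knockout cells CXCL8 had 1.17, 1.25 and 1.64 FPKM before and 5.12, 5.6 and 5.19 FPKM after olaparib. It fell in one genotype and rose in the other, and all treated knockout libraries still lay below all wild-type ones (interaction 2.15 ± 0.105, adjusted p = 6.8e-06). CXCL2, a close relative of CXCL1, rose in both genotypes. Its level went from 14.4, 15.4 and 13.7 to 17.3, 18.5 and 16.6 FPKM in the wild type and from 3.33, 2.61 and 3.24 to 12.6, 13 and 13.3 FPKM in knockout cells. The rise was 4.25-fold in the knockout against 1.21-fold in the wild type (interaction 1.54 ± 0.107, adjusted p = 9.54e-05). The sources used here do not say how reads were shared between CXCL1 and the similar CXCL2.

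IL6, the cytokine that signals through gp130 and STAT3, was at 14.9, 16.5 and 16.1 FPKM in untreated and 19.2, 20.5 and 18.4 FPKM in treated wild-type cells. Untreated knockout libraries had 5.59, 5.73 and 5.2 FPKM and treated ones 17, 17.9 and 19 FPKM. The genotypes were separate before treatment, and their ranges overlapped under olaparib (interaction 1.27 ± 0.089, adjusted p = 9.54e-05). BIRC3, an inhibitor of apoptosis that ubiquitinates members of the TNF receptor pathway, changed in the other genotype. It fell in wild-type cells, from 14.8, 17.7 and 16.9 to 7.94, 8.11 and 7.55 FPKM. In knockout cells it was at 6.06, 6.65 and 8.16 FPKM before and 6.49, 7.18 and 6.6 FPKM after olaparib, a change that was not called (-0.029, adjusted p = 0.821). The BIRC3 interaction was 0.95 ± 0.136 (adjusted p = 0.00731). Of the untreated wild-type values, 0.551, 8.44 and 9.76 FPKM sat on ENST00000526421, a transcript of 624 bases. In treated wild-type libraries this transcript did not exceed 0.00792 FPKM. ENST00000263464, of 5197 bases, had 13.2, 7.38 and 6.3 FPKM before and 7.32, 7.25 and 6.78 FPKM after olaparib there. The wild-type levels thus divide reads by different lengths, and the part of this in the fall was not tested. The remaining called members were CCL2, NFKBIA, which encodes IκBα, RELB, CD83 and the stress-response gene IER3, with interactions of 1.23, 0.61, 0.82, 0.42 and 0.40. The call of each of these 5 was lost when single libraries were left out, with adjusted p-values of up to 0.0678, 0.0651, 0.078, 0.0971 and 0.0576. CCL2 was low, with means of 2.39 FPKM in untreated wild-type and 0.0758 FPKM in untreated knockout cells. At that level its interaction depends on the 1 added to FPKM before the log, and CCL2 had little room to fall in the knockout. Over the whole list, 14 of 21 genes fell with olaparib in wild-type cells and 5 rose, while 6 fell and 7 rose in knockout cells, beside 20.8% falling and 25.3% rising among all genes in the wild type and 22.6% and 25.7% in knockout cells. The splits over all genes turned round when values were scaled to the sum of named genes, from 3875 higher and 3177 lower to 3286 and 3735 in wild-type cells and from 3932 higher and 3461 lower to 3159 and 4185 in knockout cells.

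**Figure D3:**
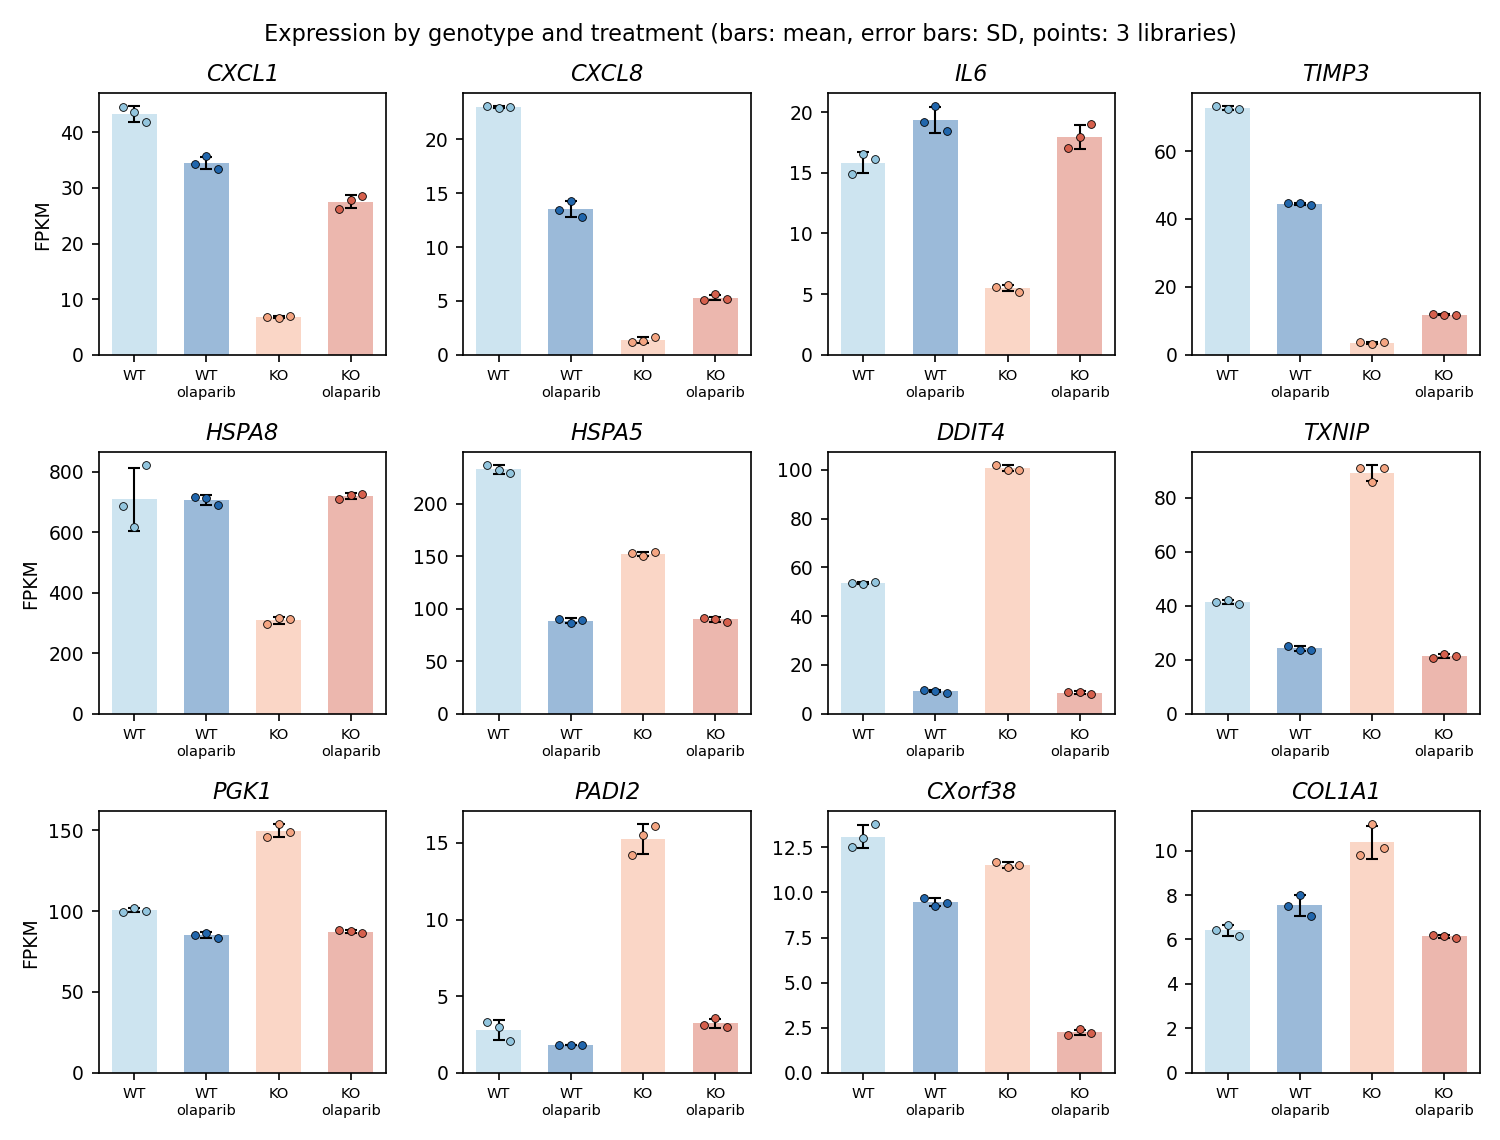
FPKM of 12 genes in untreated and olaparib-treated wild-type (WT) and TRIM27 knockout (KO) cells, on linear axes that start at 0. Bars are means, error bars SD and points the 3 libraries of each group. CXCL1 rose from a mean of 6.84 to 27.5 FPKM in knockout cells and fell in wild-type cells, while DDIT4 and TXNIP started higher in untreated knockout cells and ended at similar levels under olaparib.

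TIMP3, a secreted inhibitor of matrix metalloproteinases that is bound to the extracellular matrix, had the same interaction as CXCL1 to 2 decimals. It was at 73.3, 72.3 and 72.3 FPKM in untreated wild-type and 44.6, 44.6 and 44 FPKM in treated wild-type cells. Knockout cells had 3.64, 3.24 and 3.74 FPKM without and 11.9, 11.8 and 11.7 FPKM with olaparib. The drug lowered TIMP3 to 0.611 times its level in wild-type cells and raised it 3.33-fold in knockout cells, where it stayed below every wild-type library (interaction 2.19 ± 0.0646, adjusted p = 1.32e-07). Of 24 tested invasion proteases and inhibitors, the only other call was MMP24, a membrane-anchored metalloproteinase, with an interaction of -0.53 ± 0.0669 (adjusted p = 0.00389). Its means went from 8.38 to 5.01 FPKM in the wild type and from 23.4 to 9.84 FPKM in knockout cells.

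Matrix and TGF-beta response genes mostly had negative interactions. TGF-beta signals through SMAD proteins to induce collagens, other matrix genes and the ID inhibitors of differentiation. Of 30 tested genes of this response (median -0.14), 2 were called positive and 7 negative, beside 1.16% and 1.45% of all genes tested. COL1A1, a chain of type I collagen, had 6.44, 6.64 and 6.15 FPKM in untreated and 7.5, 8.02 and 7.07 FPKM in treated wild-type cells. In the knockout it had 9.82, 11.2 and 10.1 FPKM untreated and 6.2, 6.17 and 6.06 FPKM treated. Olaparib raised it in one genotype and lowered it in the other, and the order of the genotypes turned round (interaction -0.87 ± 0.0864, adjusted p = 0.000894). In a fit that shared its spread with the siPARP1 libraries this call was lost (adjusted p = 0.0698). COL5A1, a chain of the fibril-forming collagen type V, rose 2.23-fold in the wild type and 1.67-fold in knockout cells (interaction -0.37 ± 0.0649, adjusted p = 0.0192), a call lost on leaving out 2 of the 12 libraries. The other negative members were TGFB2, TGFBI, ID1, COL4A1 and the kinase NUAK1, between -0.65 (TGFBI) and -0.29 (NUAK1).

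The positive members of the TGF-beta list were THBS1 and ID2. THBS1, which encodes the matrix protein thrombospondin 1, an activator of latent TGF-beta, rose from 434, 448 and 448 to 494, 490 and 493 FPKM in wild-type cells. It rose from 320, 317 and 324 to 457, 451 and 444 FPKM in knockout cells. ID2, a dominant-negative partner of basic helix-loop-helix factors, rose 4.29-fold in the wild type and 6.88-fold in knockout cells and reached the same range in both, 21.1 to 22.9 and 21.8 to 23.8 FPKM. Their interactions were 0.34 ± 0.044 (adjusted p = 0.00441) and 0.55 ± 0.0778 (adjusted p = 0.00687).

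Targets of YAP and TEAD, the transcription pair that reads out cell shape and stiffness of the surroundings, gave 1 positive and 5 negative calls among 28 genes (median -0.15). F3, tissue factor, the trigger of blood clotting, rose from 77.6, 83 and 81.3 to 410, 415 and 415 FPKM in wild-type cells. In knockout cells F3 rose from 114, 116 and 115 to 414, 405 and 408 FPKM. The treated libraries of both genotypes reached a common range from different starting levels (interaction -0.52 ± 0.0492, adjusted p = 0.000692). IGFBP3, a carrier of insulin-like growth factors, rose in wild-type cells from a mean of 266 to 325 FPKM and had 355 and 340 FPKM in knockout cells, where its change was not called (adjusted p = 0.165). CRIM1, a membrane protein that binds bone morphogenetic proteins, had means of 118 and 116 FPKM in wild-type cells and fell from 170 to 133 FPKM in knockout cells. Their interactions were -0.35 ± 0.0495 (adjusted p = 0.00655) and -0.32 ± 0.0483 (adjusted p = 0.0101). The positive member was NT5E, the ecto-5′-nucleotidase CD73, which makes adenosine outside cells and marks mesenchymal cells. NT5E had 68.3, 66.1 and 68.6 FPKM in untreated and 97.7, 96.5 and 99.8 FPKM in treated wild-type cells. It rose from 39.2, 37.4 and 34.4 to 80.7, 79.6 and 83.1 FPKM in the knockout, a 2.19-fold change against 1.45-fold (interaction 0.59 ± 0.0686, adjusted p = 0.0026).

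Among 24 mesenchymal markers and regulators of the epithelial-mesenchymal transition, 1 interaction was positive (NT5E) and 3 were negative (COL1A1, COL5A1 and TGFBI). Among 15 epithelial markers, 1 was positive and 2 were negative. CLDN1, a tight-junction protein, rose 1.17-fold in the wild type and 1.61-fold in knockout cells (interaction 0.43 ± 0.0724, adjusted p = 0.0172). JUP, plakoglobin of adherens junctions and desmosomes, and ELF3, an epithelial ETS factor, were negative at -0.46 (adjusted p = 0.0287) and -0.84 (adjusted p = 0.0344), and both calls were lost on leaving out 9 of the 12 libraries singly. The 30 integrin and adhesion genes gave a single call, MCAM, positive at 0.54.

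The called chaperone genes of the ER and of the cytosol had positive interactions, while most members of both lists had no call. Chaperones of the endoplasmic reticulum fold secreted and membrane proteins and are induced by the unfolded protein response through ATF6 and XBP1, which act at the ER stress element. Of 30 genes tested, 6 were called positive, none negative and 24 not at all (median 0.22), and 3 were below 0. The promoter of HSPA5 is shown because this gene, BiP, is the main ER chaperone and holds an exact match to the consensus of the element, CCAAT and CCACG with 9 bases between them, searched on both strands and given in capitals, in the 250 bases before its RefSeq start (GRCh38.p14).
HSPA5 (chr9:125241344-125241593, minus strand): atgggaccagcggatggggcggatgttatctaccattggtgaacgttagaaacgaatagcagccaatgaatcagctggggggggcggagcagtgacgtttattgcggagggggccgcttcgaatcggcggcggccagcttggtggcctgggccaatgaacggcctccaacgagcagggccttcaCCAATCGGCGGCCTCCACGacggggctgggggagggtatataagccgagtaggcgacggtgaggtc
The match begins 66 bases before the start. These letters occur in 0.074% of the 35116 promoter windows, and in 8 of the 28 tested ER genes with a window.

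HSPA5 had 237, 232 and 229 FPKM in untreated wild-type cells and 153, 150 and 154 FPKM in untreated knockout cells. Olaparib brought it to 90.7, 86.5 and 89 FPKM in the wild type, and the knockout reached 91.5, 90.6 and 87.5 FPKM. The treated ranges overlapped, while the untreated ones were far apart (interaction 0.63 ± 0.0504, adjusted p = 0.000314). Sums of the deposited transcript values gave other results for HSPA5 (-2.81, adjusted p = 0.691) and for PDIA4 (-0.064, adjusted p = 0.962). DNAJB9, an ER co-chaperone that regulates the stress sensor IRE1, fell from 15.9, 16 and 14.9 to 5.9, 6.07 and 5.87 FPKM in wild-type cells. In the knockout it was already at 5.7, 7.08 and 6.43 FPKM without treatment and at 4.53, 5.73 and 4.61 FPKM with olaparib (interaction 0.94 ± 0.123, adjusted p = 0.00445). PDIA4, a disulfide isomerase, fell from a mean of 114 to 73.1 FPKM in the wild type and from 96.4 to 77.4 FPKM in knockout cells (interaction 0.32 ± 0.0518, adjusted p = 0.0128). SDF2L1, a partner of BiP, fell in wild-type cells from 11.9 to 9.06 FPKM and stood at 10.2 and 11.2 FPKM in knockout cells, a change that was not called (interaction 0.48 ± 0.0747, adjusted p = 0.0114). The other called members were DNAJC3 at 0.36 and SERP1 at 0.30. SELENOS, a selenoprotein of the machinery that exports misfolded proteins from the ER and not a member of the list, had 20.5, 21 and 21.5 FPKM in untreated wild-type cells and 19.1, 19.9 and 22.1 FPKM in treated ones. It rose from 15.3, 16.3 and 14.6 to 24.5, 23.7 and 24 FPKM in the knockout (interaction 0.66 ± 0.0836, adjusted p = 0.00392).

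Cytosolic heat shock chaperones gave 4 positive and no negative calls among 20 genes (median 0.22), of which 5 were below 0. HSPA8, the constitutive Hsc70 that serves protein folding and the uncoating of clathrin vesicles, was at 687, 618 and 823 FPKM in untreated wild-type cells and 718, 713 and 689 FPKM under olaparib. It was at 297, 318 and 314 FPKM in untreated and 709, 722 and 727 FPKM in treated knockout cells. All 3 untreated knockout libraries lay below every other library, and HSPA8 rose 2.32-fold there with the drug (interaction 1.21 ± 0.119, adjusted p = 0.000887). DNAJA1, a J-domain partner of Hsp70, rose from 65.4, 64.6 and 64.3 to 76.3, 76.9 and 76.2 FPKM in the wild type and from 46.6, 47.1 and 46.3 to 70.2, 71.5 and 69.8 FPKM in knockout cells (interaction 0.35 ± 0.0446, adjusted p = 0.00404). The inducible Hsp70 genes HSPA1A and HSPA1B were called at 0.96 and 0.88, but these are near-identical copies whose reads the counting could split between them. HSPA2, another Hsp70 relative, was at 6.64, 6.82 and 6.61 FPKM in untreated wild-type cells and between 2.74 and 3.43 FPKM in the libraries of the other 3 groups (interaction 0.82 ± 0.0753, adjusted p = 0.000563).

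**Figure D4:**
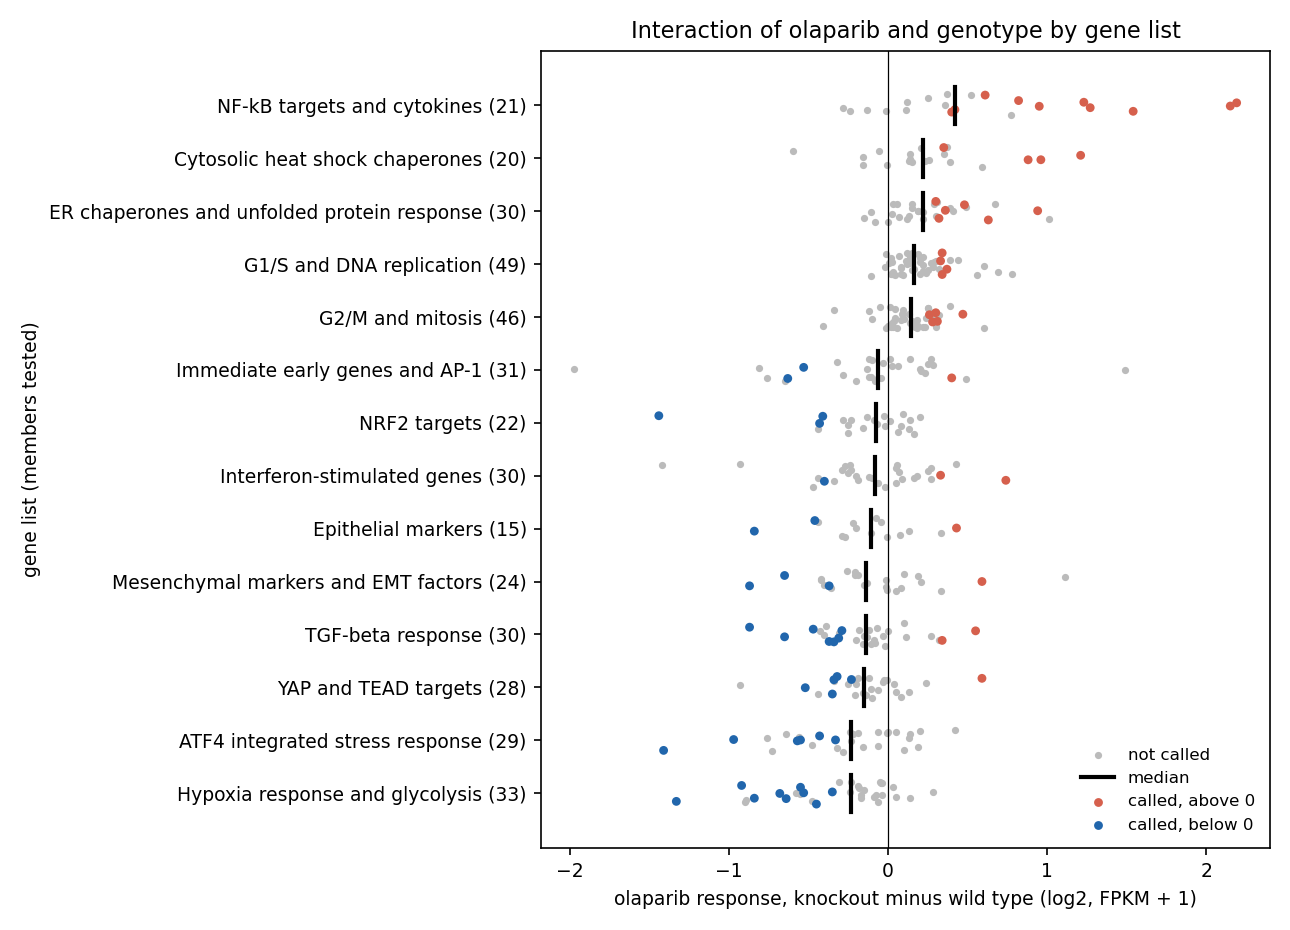
Interaction of olaparib and genotype (log2 of FPKM + 1, knockout response minus wild-type response) for the tested members of 14 gene lists with at least 3 called genes, with the number of members tested in brackets. Red and blue points are called genes above and below 0, grey points are genes without a call, and black bars are list medians. The NF-kB list lies highest, with a median of 0.42, and the ATF4 and hypoxia lists lie lowest, both at -0.23.

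The called genes of the ATF4 stress response and of hypoxia and glycolysis had negative interactions, while most members of both lists had no call. ATF4 is translated when the initiation factor eIF2α is phosphorylated and induces genes for amino acid uptake and synthesis, redox control and the brake on mTORC1. Of 29 tested genes, 6 were called negative, none positive and 23 not at all (median -0.23), and 8 were above 0. Most of the list fell with olaparib in both genotypes, with 24 genes lower in the wild type and 25 in knockout cells. Over all genes tested, 20.8% fell in the wild type and 22.6% in knockout cells. DDIT4, REDD1, an inhibitor of mTORC1, went from 53.7, 53.3 and 54.2 to 9.55, 9.38 and 8.66 FPKM in wild-type cells. Its knockout level went from 102, 100 and 100 to 9.1, 9.04 and 7.9 FPKM. The genotypes started apart and ended in overlapping ranges (interaction -0.97 ± 0.0787, adjusted p = 0.000314). CHAC1, which degrades glutathione, had 2.73, 6.01 and 5.33 FPKM in untreated wild-type and 14.1, 16.3 and 16.1 FPKM in untreated knockout cells, and all 6 treated libraries were between 0.514 and 1.06 FPKM. Its interaction of -1.41 ± 0.281 (adjusted p = 0.0307) lost its call when any of 9 libraries was left out. The call was also lost with 0.1 in place of 1 added to FPKM before the log (-1.43, limma adjusted p = 0.0877). Without the filter it was lost as well (limma adjusted p = 0.0677). SLC7A11, the cystine importer, started level, at 22.7, 21.4 and 21.9 FPKM in the wild type and 23, 20.9 and 23.6 FPKM in knockout cells. Under olaparib SLC7A11 had 12.2, 12 and 12.1 FPKM in the wild type and 9.24, 8.94 and 8.59 FPKM in knockout cells, so that a genotype difference was called with the drug and not before it (interaction -0.43 ± 0.0739, adjusted p = 0.0179). Under siPARP1 SLC7A11 was also lower in the knockout, at a mean of 16.1 against 21.3 FPKM (-0.38, adjusted p = 3.63e-05). STC2, the secreted stanniocalcin 2, fell to 0.806 times its level in the wild type and to 0.517 times in knockout cells (interaction -0.57 ± 0.0811, adjusted p = 0.00728). SESN2, sestrin 2, and ALDH1L2, a mitochondrial folate enzyme, completed the calls at -0.33 and -0.55. The SESN2 call was lost in 11 of the 12 fits without 1 library (adjusted p of up to 0.0825). None of the 20 tested aminoacyl-tRNA synthetases, several of which are ATF4 targets, was called, their median interaction was 0.005, and 5 had an unadjusted p under 0.05 in limma.

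Hypoxia-inducible factor (HIF) binds the core letters ACGTG and raises glycolytic enzymes and regulators of mitophagy. Of 33 tested genes of hypoxia and glycolysis, 9 were called negative, none positive and 24 not at all, and 29 of the 33 were below 0. PGK1, a glycolytic enzyme, is shown with its promoter because it is abundant and holds 2 matches to the core (capitals, both strands) in the 250 bases before its RefSeq start (GRCh38.p14).
PGK1 (chrX:78103998-78104247, plus strand): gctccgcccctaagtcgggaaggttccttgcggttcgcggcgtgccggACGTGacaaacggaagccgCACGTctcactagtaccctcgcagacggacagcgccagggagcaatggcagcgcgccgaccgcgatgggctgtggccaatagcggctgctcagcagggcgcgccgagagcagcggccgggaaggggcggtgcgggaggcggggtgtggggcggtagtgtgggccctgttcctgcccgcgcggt
The matches begin 202 and 183 bases before the start. The 5 letters are short and occur in 18.5% of the 35116 windows, and in 14 of the 29 tested list genes with a window.

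PGK1 had 99.8, 102 and 100 FPKM in untreated and 85.5, 86.7 and 83.5 FPKM in treated wild-type cells. Knockout cells had 146, 154 and 149 FPKM untreated and 88.1, 87.5 and 86.3 FPKM treated. The untreated knockout libraries were the highest and the untreated wild-type libraries came next, above all treated libraries of both genotypes, which lay within 83.5 to 88.1 FPKM (interaction -0.53 ± 0.0483, adjusted p = 0.000563). PFKFB4, which sets the level of the glycolytic activator fructose 2,6-bisphosphate, had 5.52, 5.44 and 5.49 FPKM in untreated wild-type and 11.6, 11.3 and 11.2 FPKM in untreated knockout cells. All treated libraries were between 2.21 and 3.26 FPKM (interaction -0.92 ± 0.123, adjusted p = 0.00493). The mitophagy receptors BNIP3 and BNIP3L behaved alike in the knockout, from 95.6, 95.3 and 95.1 to 62.9, 65.7 and 62 FPKM for BNIP3 and from 96.6, 96.2 and 97.9 to 42.3, 47.7 and 47.2 FPKM for BNIP3L. In wild-type cells BNIP3 stood at 67.4, 68.9 and 65.2 FPKM and then 67.9, 70.6 and 72 FPKM, without a call, while BNIP3L fell from 63, 67 and 67.7 to 45.6, 45.8 and 45.4 FPKM. Their interactions were -0.64 ± 0.0563 (adjusted p = 0.000522) and -0.55 ± 0.0713 (adjusted p = 0.00445). ANKRD37, a HIF target of unclear function, rose with olaparib in wild-type cells, from 4.92, 5.79 and 4.32 to 9.67, 10.8 and 11.8 FPKM. It was at 13.9, 15.8 and 16.3 FPKM in untreated and 15.5, 17.9 and 17 FPKM in treated knockout cells, with no called response (interaction -0.84 ± 0.145, adjusted p = 0.0179). ENO2, NDRG1, HK1 and PFKL were the other calls, at -1.33, -0.68, -0.45 and -0.35. Despite its size, the ENO2 value was not among the 12 most negative named ones. ENO2 lacked a group mean of at least 5 FPKM, a call in all 12 fits that left out 1 library, or both.

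TXNIP, ARRDC4 and ACSS2 were named for the size or pattern of their negative interactions. TXNIP, a glucose-responsive inhibitor of thioredoxin and of glucose uptake, was at 41.6, 42.1 and 40.6 FPKM in untreated and 25.2, 23.7 and 23.7 FPKM in treated wild-type cells. In knockout cells it was at 91, 85.9 and 91 FPKM and then at 20.7, 22.1 and 21.6 FPKM. The knockout was the highest group before and the lowest after olaparib (interaction -1.25 ± 0.0629, adjusted p = 6.8e-06). ARRDC4, the relative of TXNIP that also restrains glucose uptake, started at 8.06 to 8.53 FPKM in the wild type and in the same range, 8.08 to 8.71 FPKM, in the knockout. ARRDC4 then rose to 11.2 to 12.3 FPKM in wild-type cells and was at 7.46 to 8.05 FPKM in knockout cells (interaction -0.56 ± 0.0721, adjusted p = 0.00404). ACSS2, which makes acetyl-CoA from acetate, fell from 19.3, 21.2 and 20.6 to 15.7, 15.1 and 13.8 FPKM in the wild type and from 44.9, 44.2 and 42.7 to 17.3, 16.1 and 16.5 FPKM in knockout cells (interaction -0.92 ± 0.0817, adjusted p = 0.000536). Besides ACSS2, the fatty acid list of 19 genes held 1 call, the desaturase SCD at -0.28, and the cholesterol list of 24 genes held the regulator SREBF2 at -0.35. Both lists fell in both genotypes, with 15 and 20 genes lower in the wild type and 14 and 21 in knockout cells. Over all genes tested, 20.8% were lower in the wild type and 22.6% in knockout cells.

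NRF2, the regulator of antioxidant enzymes, had 3 negative and no positive calls among 22 targets (median -0.079), 1 of them on a gene near 0 in the knockout. NQO1, a quinone reductase and standard NRF2 readout, rose from 1.81, 2.55 and 2.31 to 9.38, 8.24 and 6.77 FPKM in wild-type cells. In the knockout it was listed at 0.068, 0 and 0 FPKM without and at 0.0208, 0.126 and 0.0611 FPKM with olaparib. NQO1 passed the filter through its wild-type libraries alone. With the knockout libraries at or near 0, the interaction of -1.44 ± 0.163 (adjusted p = 0.0022) is set by the pseudocount and does not show a smaller relative response in the knockout. With a pseudocount of 0.1 it was not called (adjusted p = 0.124). ABCC2, an exporter of glutathione conjugates, rose 2.2-fold in the wild type and 1.69-fold in knockout cells (interaction -0.41 ± 0.0719, adjusted p = 0.0202), a call lost on leaving out any of 4 libraries. The third call was SLC7A11, described above with the ATF4 genes.

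TNFRSF10D, a decoy receptor for the death ligand TRAIL, rose 1.56-fold in the wild type and 2.19-fold in knockout cells (interaction 0.45 ± 0.0617, adjusted p = 0.00608). PMAIP1, which encodes the pro-apoptotic NOXA, had 7.14, 7.47 and 7.95 FPKM and then 8.87, 7.81 and 8.27 FPKM in wild-type cells. It fell from 10.3, 11.1 and 12.9 to 6.96, 7.23 and 6.84 FPKM in knockout cells (interaction -0.76 ± 0.11, adjusted p = 0.00764). PLK2, a kinase of centriole duplication, rose from 294, 303 and 304 to 418, 420 and 420 FPKM in the wild type and from 398, 399 and 411 to 480, 473 and 478 FPKM in knockout cells, and its interaction of -0.23 ± 0.0444 (adjusted p = 0.0264) lost its call on leaving out any of 9 libraries.

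Cell-cycle genes fell in both genotypes, and their called interactions were small and positive. Of 49 genes of the G1/S transition and DNA replication, 47 fell with olaparib in the wild type and 41 in knockout cells. Over all genes tested these shares were 20.8% and 22.6%. The interaction of the 49 genes was positive for 4, negative for none, and above 0 for 46 (median 0.16). The called genes were the sliding clamp PCNA, the flap endonuclease FEN1, thymidylate synthase TYMS and the uracil glycosylase UNG. FEN1 went from 45.8, 47.4 and 44.1 to 19.2, 18.9 and 17.9 FPKM in the wild type and from 32.3, 33.8 and 33.5 to 17.3, 18.3 and 16.2 FPKM in knockout cells. PCNA went from 106, 110 and 112 to 91.1, 93.7 and 89.4 FPKM in the wild type and from 76.7, 82.1 and 80.1 to 84.4, 88.8 and 80.6 FPKM in knockout cells. Both were lower in untreated knockout than in any untreated wild-type library. TYMS fell to 0.915 times its level in the wild type and rose 1.16-fold in knockout cells. The interactions of TYMS, PCNA, UNG and FEN1 were 0.33, 0.34, 0.37 and 0.34 (adjusted p = 0.0197, 0.0281, 0.0343 and 0.043). Transcript sums gave UNG an interaction of -0.023 (adjusted p = 0.944). Leaving out 1 library at a time ended the call of TYMS in 1 of 12 fits, of PCNA in 9, of UNG in 10 and of FEN1 in 11.

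Of 46 genes of G2/M and mitosis, 42 fell in the wild type and 41 in knockout cells, beside 20.8% and 22.6% of all genes. The interaction was positive for 5 and negative for none (median 0.15). CCNB1, cyclin B1, fell from 129, 124 and 127 to 89.6, 88.9 and 89.4 FPKM in wild-type cells and from 115, 116 and 113 to 94.6, 97.8 and 98.1 FPKM in knockout cells (interaction 0.26 ± 0.0468, adjusted p = 0.0215). CDC20, the activator of the anaphase-promoting complex, stood level before treatment, at 92.9 to 97.1 and 93.5 to 99.5 FPKM, and fell to 57.5 to 60.8 FPKM in the wild type but to between 72 and 76.6 FPKM in the knockout. The kinetochore gene NDC80, the mitotic kinesin KIF20A and the checkpoint kinase BUB1 were called at 0.47, 0.31 and 0.30. The call of CDC20 (0.28, adjusted p = 0.0391) was lost in all 12 fits without 1 library, that of KIF20A in 10, of NDC80 in 9 and of CCNB1 in 7.

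Among repair genes the share of calls was near that over all genes tested, 2.61%. None of 41 tested genes of homologous recombination and the Fanconi pathway had a called interaction (median 0.044), and 5 had an unadjusted p under 0.05 in limma. Of the 41, 31 fell in the wild type and 32 in knockout cells, beside 20.8% and 22.6% of all genes. Among 36 PARP enzymes, hydrolases and single-strand break repair genes, 1 interaction was positive, that of the antiviral PARP family member ZC3HAV1 (0.50 ± 0.0688, adjusted p = 0.00639), and 1 negative, that of the mono-ADP-ribose hydrolase MACROD1 (-0.46 ± 0.102, adjusted p = 0.0472). ZC3HAV1 had means of 13.5 and 13.4 FPKM in wild-type cells and went from 8.53 to 12.3 FPKM in knockout cells.

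All 25 tested replication-dependent histone genes rose in both genotypes, beside 25.3% of all genes in the wild type and 25.7% in knockout cells. Their median rise was 2.53 on the log2 scale in the wild type and 1.91 in knockout cells, and 2 had a called negative interaction. H2BC8 went from 3.61 to 41.9 FPKM in the wild type and from 2.85 to 25.2 FPKM in knockout cells, and H2BC21 from 1.43 to 12.9 and from 1.06 to 6.73 FPKM. Histone genes are near-identical copies, and reads may be shared between them. The libraries were made from RNA selected on oligo(dT) beads, which also limits what the histone values measure. Of 30 interferon-stimulated genes, 2 interactions were positive and 1 negative. IFIT1, a sensor of viral RNA, rose from 5.79, 6.39 and 6.02 to 10.2, 11 and 10.6 FPKM in the wild type and from 10.4, 10.3 and 9.75 to 22.2, 21.8 and 21.8 FPKM in knockout cells (interaction 0.33 ± 0.0681, adjusted p = 0.0354), a call lost in 11 of the 12 fits without 1 library. With transcript values turned into fragments the IFIT1 interaction was 0.18, without a call (limma adjusted p = 0.806). Its transcript ENST00000546318, of 4613 bases, had 5.9, 2.87 and 0.332 FPKM in untreated and 0.578, 0.776 and 11.3 FPKM in treated knockout libraries. ENST00000371804, which held most of the rest, has 1880 bases. The part of this in the interaction was not tested. UBE2L6, the conjugating enzyme for ISG15, fell to 0.718 times its level in the wild type and 0.538 times in knockout cells (interaction -0.40 ± 0.069, adjusted p = 0.0189, and up to 0.0543 without 1 library). The other positive gene was SAMD9L. Of 13 listed transcripts encoded in mitochondria, all had interactions above 0 and 1, MT-ND1, was called (0.35). The mitochondrial tRNA MT-TF, which is not on this list, was called negative (-0.82, limma adjusted p = 0.0035). None of 76 cytosolic ribosomal protein genes, 28 lysosome and autophagy genes or 17 genes of the WASH complex and retromer was called, with medians of -0.032, 0.000 and -0.049. Of these, 1, 3 and 1 had an unadjusted p under 0.05.

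Immediate early genes gave 1 positive and 2 negative calls among 31. JUN, a subunit of AP-1, had 65, 64.9 and 63.4 FPKM in untreated and 106, 108 and 107 FPKM in treated wild-type cells. Knockout cells had 98.8, 100 and 96.2 FPKM before and 113, 112 and 113 FPKM after olaparib. The knockout started near the level that wild-type cells reached with the drug (interaction -0.53 ± 0.0458, adjusted p = 0.000473). KLF4, a zinc-finger factor of stem cells and epithelia, rose 1.8-fold in wild-type cells and had no called change in the knockout (interaction -0.63 ± 0.0985, adjusted p = 0.0118). IER3 was the positive one.

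Several of the largest interactions belonged to genes outside the lists. PADI2, which converts arginine in histones and other proteins to citrulline, had 3.33, 2.98 and 2.05 FPKM in untreated and 1.81, 1.84 and 1.81 FPKM in treated wild-type cells. In the knockout it had 14.2, 15.5 and 16.1 FPKM before and 3.13, 3.57 and 3 FPKM after olaparib, a drop to 0.211 times (interaction -1.54 ± 0.163, adjusted p = 0.00139). PEA15, a phosphoprotein that binds the kinase ERK and death-domain proteins, had 41.7, 42.4 and 42.3 FPKM and then 49.2, 50.9 and 47.1 FPKM in wild-type cells. It fell from 75.7, 76 and 71.1 to 45.2, 44.5 and 44 FPKM in knockout cells, so that a rise stood against a fall (interaction -0.94 ± 0.0598, adjusted p = 5.78e-05). The PEA15 call was lost in the fit of all 18 libraries (adjusted p = 0.0875). RCAN1, an inhibitor of the phosphatase calcineurin, fell from 51.7, 49.5 and 50.9 to 18, 19.8 and 22.3 FPKM in the wild type and from 33.7, 32.4 and 32.5 to 25, 26.8 and 26 FPKM in knockout cells (interaction 0.97 ± 0.0945, adjusted p = 0.000849). The mitochondrial phenylalanine tRNA, MT-TF, rose 4.68-fold in the wild type and 2.56-fold in knockout cells to 59.2 to 66.4 and 66 to 66.4 FPKM (interaction -0.82 ± 0.102, adjusted p = 0.0035). A tRNA is short, and the libraries were made from RNA selected on oligo(dT) beads, which limits what its FPKM value measures.

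In a smaller set the genotypes lay close together at the start and further apart under olaparib. CXorf38, an uncharacterised gene of the X chromosome, had 12.5, 13 and 13.8 FPKM in untreated wild-type and 11.7, 11.4 and 11.5 FPKM in untreated knockout cells. Under olaparib it had 9.69, 9.25 and 9.41 FPKM in wild-type but 2.09, 2.41 and 2.21 FPKM in knockout cells. The untreated difference was small but called, and under the drug knockout minus wild type was -1.69 on the log2 scale (interaction -1.52 ± 0.0752, adjusted p = 6.8e-06). CBL, a ubiquitin ligase that ends signalling of receptor tyrosine kinases, had 11.6, 11.6 and 11.4 FPKM in untreated wild-type and 11.5, 10.9 and 10.9 FPKM in untreated knockout cells. Under olaparib CBL had 7.85, 7.37 and 5.71 FPKM in the wild type and 14.5, 14.7 and 15.2 FPKM in knockout cells (interaction 1.05 ± 0.123, adjusted p = 0.0026). In the treated wild-type libraries 92.7% of the CBL value sat on ENST00000637974, a transcript of 3030 bases that was listed at 0 in the other 9 libraries. There the value sat on ENST00000264033, of 11231 bases, so the CBL levels divide reads by different lengths. CD55, which shields cells from complement, had 13.4 to 13.8 FPKM in untreated wild-type and 12.4 to 12.6 FPKM in untreated knockout cells, then 9.23 to 9.49 and 13 to 14.6 FPKM. Its interaction of 0.62 ± 0.0652 (adjusted p = 0.00124) was not called on transcript sums (0.39, adjusted p = 0.299). PBXIP1, a partner of PBX homeodomain proteins and oestrogen receptors, rose 1.26-fold in the wild type and fell to 0.751 times in knockout cells (interaction -0.67 ± 0.0876, adjusted p = 0.00445).

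The libraries with siRNA against PARP1 (48 h, labelled 100 pM) were not used to choose these genes and give the genotype difference under another treatment directed at PARP1. Of the 212 genes whose untreated difference was no longer called under olaparib, 91 (42.9%) had a called difference between knockout and wild type under siPARP1, 70 of them with the sign seen without treatment. Over all genes tested that share was 23.2% (3553 genes). The 212 genes were chosen for a called untreated difference, so a share above that of all genes can follow from the choice. The share among the 3091 genes called untreated was not computed. Several of the leading genes had little genotype difference under siPARP1. DDIT4 was at 19 FPKM in the wild type and 19.8 FPKM in knockout cells under siPARP1, PFKFB4 at 3.16 and 3.53, ACSS2 at 9.12 and 9.93, DNAJB9 at 17.9 and 17.2, and RCAN1 at 23.5 and 24.2 FPKM (means), none of them called. Others stayed lower in the knockout under siPARP1: CXCL1 at 23.2 against 49.8 FPKM (-1.07, adjusted p = 3.29e-10), CXCL8 at 15 against 64.2 FPKM (-2.03, adjusted p = 7.8e-11) and TIMP3 at 6.29 against 59.2 FPKM (-3.05, adjusted p = 1.46e-15). CXorf38 and CBL, which moved apart under olaparib, were at 6.94 and 5.86 FPKM and at 10.9 and 9.49 FPKM. The 2 treatments differ in agent and in time, so the values are given side by side.

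**Figure D5:**
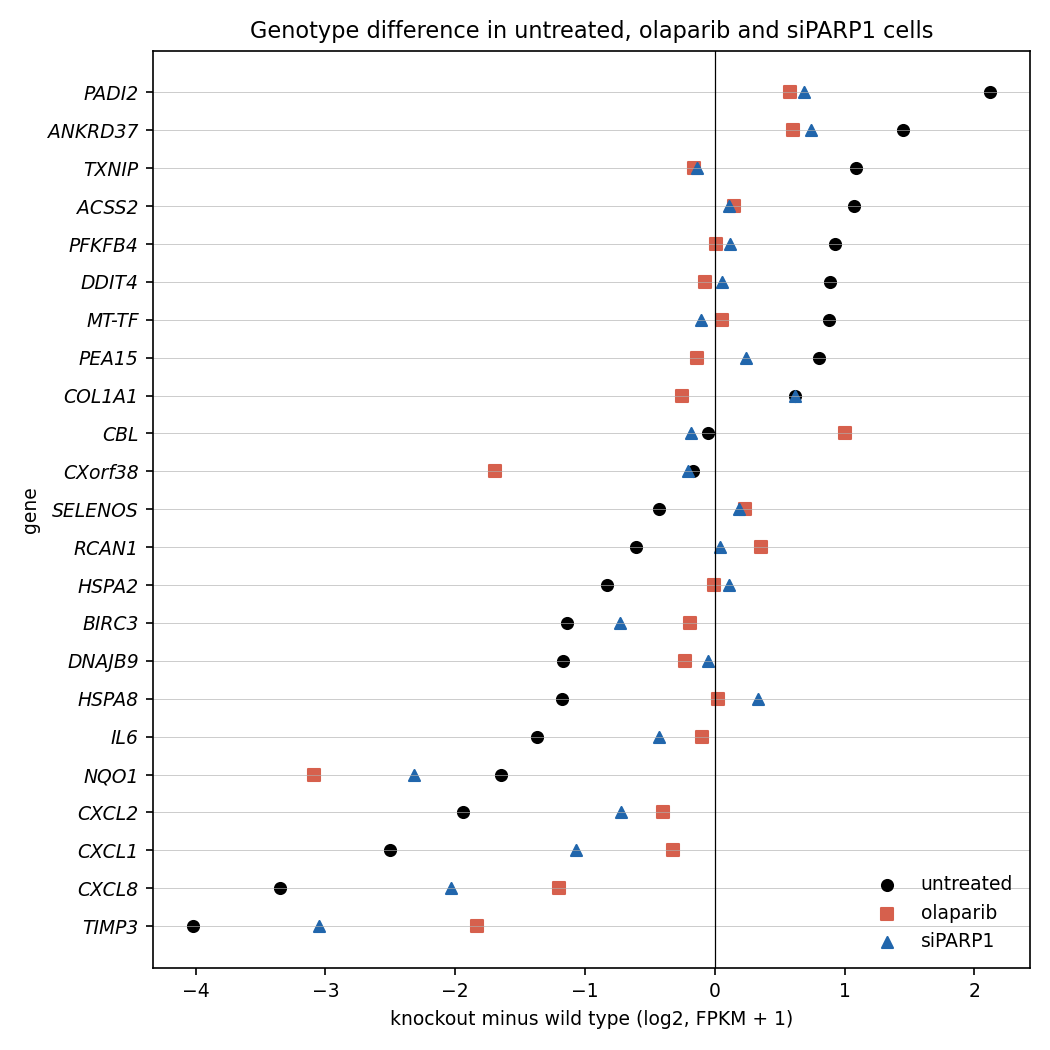
Knockout minus wild type (log2 of FPKM + 1) in untreated cells (black circles), under olaparib (red squares) and under siPARP1 (blue triangles) for the 12 most positive and 11 of the 12 most negative interactions of the named genes. Each point is a difference of group means over 3 libraries each. For TXNIP, DDIT4, ACSS2, PFKFB4 and HSPA2 both treated differences lie between -0.16 (TXNIP) and 0.15 (ACSS2), closer to 0 than the untreated one, and for CXorf38 and CBL the olaparib difference (-1.69 and 1) is further from 0 than the untreated and siPARP1 differences of the same gene.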

How the data were processed

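Gene and transcript FPKM values were deposited by the authors for 18 libraries, of which the 12 untreated and olaparib libraries were fitted here. The submitters' processing notes name the build GRCh38 and, with no role or order, HISAT2 2.2.1 and StringTie 2.2.1, then fastp 0.23.2, DESeq2 1.38.3 and featureCounts 2.0.3. The tool and annotation behind the FPKM values are not stated there. FPKM depends on the transcript length assigned to a gene, so a shift between transcripts can move it, and on the sum over all loci, including those without a name.

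Genes reaching 1 FPKM in 3 or more of the 12 libraries entered the test, and log2(FPKM + 1) was fitted with limma 3.58.1 in R 4.3.3 as 4 group means with a trended prior. Fold changes on this scale understate the change of low genes. The interaction and the 4 simple differences were tested 2-sided with Benjamini-Hochberg adjustment over all 15286 genes, and an adjusted p under 0.05 is a call. The siPARP1 difference came from a fit of all 18 libraries. The script was tested on simulated data, in which 38% of interactions of 0.5 and 76% of those of 1 on the log2 scale were called. A gene without a call may thus still respond differently by genotype. Ratios in the text are ratios of mean FPKM.

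The genes and lists were chosen with earlier results of these data known. Named genes were the 12 most positive and 12 most negative interactions with a symbol, a group mean of at least 5 FPKM and a call in all 12 fits that left out 1 library. To these were added up to 4 called members of each list with 3 or more calls, up to 4 genes of each pattern, and TRIM27, PARP1, PARP2 and PAX6. Other names are called list members, and 1 gene that met the rule and 1 gene list are not reported here. Promoter windows are from RefSeq (GRCh38.p14) and were matched by symbol. Alternatives changed the pseudocount (0.1), the filter (none, or 5 FPKM), the scaling, the libraries, the prior, the use of transcript values and the replicate block.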

Additional observations from a re-analysis of the deposited data

Results flagged for a closer look

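The following named genes call for a closer look because the olaparib effect differed between the genotypes by the test of the interaction itself. Values are interactions on the log2(FPKM + 1) scale. On this scale the response of knockout cells was the lower one for PADI2 (-1.54), CXorf38 (-1.52), NQO1 (-1.44), CHAC1 (-1.41), TXNIP (-1.25), DDIT4 (-0.97), PEA15 (-0.94), PFKFB4 (-0.92), ACSS2 (-0.92), COL1A1 (-0.87), ANKRD37 (-0.84), ELF3 (-0.84), MT-TF (-0.82), PMAIP1 (-0.76), PBXIP1 (-0.67), BNIP3 (-0.64) and KLF4 (-0.63). It was also lower, by less, for STC2 (-0.57), ARRDC4 (-0.56), BNIP3L (-0.55), JUN (-0.53), PGK1 (-0.53), F3 (-0.52), JUP (-0.46), SLC7A11 (-0.43), ABCC2 (-0.41), UBE2L6 (-0.40), COL5A1 (-0.37), IGFBP3 (-0.35), SESN2 (-0.33), CRIM1 (-0.32) and PLK2 (-0.23). The higher response was in knockout cells for CXCL1 (2.19), TIMP3 (2.19), CXCL8 (2.15), CXCL2 (1.54), IL6 (1.27), HSPA8 (1.21), CBL (1.05), RCAN1 (0.97), BIRC3 (0.95), DNAJB9 (0.94), HSPA2 (0.82), SELENOS (0.66), HSPA5 (0.63) and CD55 (0.62). Smaller differences in this direction were those of NT5E (0.59), ID2 (0.55), SDF2L1 (0.48), NDC80 (0.47), TNFRSF10D (0.45), CLDN1 (0.43), IER3 (0.40), UNG (0.37), DNAJA1 (0.35), THBS1 (0.34), PCNA (0.34), FEN1 (0.34), IFIT1 (0.33), TYMS (0.33), PDIA4 (0.32), KIF20A (0.31), CDC20 (0.28) and CCNB1 (0.26). NQO1 was at or near 0 FPKM in all knockout libraries, so its value depends on the pseudocount and shows no smaller relative response. The genes were chosen from the same fit, so these values describe the selection. Leaving out single libraries ended the call of 18 of them in at least 1 of the 12 fits.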

How the results depend on the processing

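Depth is unknown, 3 libraries a group limit the precision, and the number of called interactions depends on the processing more than the sign of the named ones. Of the 399 called genes, 385 were called again with median-of-ratios scaling, 357 with scaling to named genes, 302 with TPM scaling, 387 with a robust prior, 340 with all 18 libraries, 351 with a pseudocount of 0.1, 230 without the filter, 328 of 329 with a filter of 5 FPKM, 334 of 370 on transcript sums and 293 of 326 on fragments from transcripts. Fragments from transcripts gave 380 positive and 397 negative calls, with 362 genotype differences lost, 184 kept, 148 gained and 73 reversed under olaparib. Without the filter, 143 calls were negative, 138 differences lost and 24 reversed. TPM scaling gave 23 reversed. The group mean of each gene was subtracted, and the remaining deviations were correlated between libraries of different groups. For libraries of the same replicate number these correlations were weak, with 0 of 18 such pairs over 0.1 (-0.0408 to 0.0912, beside -0.0885 to 0.0514 for other pairs). Even so, the deviations of 9 of 12 libraries correlated best with their own number, and whether the number marks a shared effect was not tested. With the number as a replicate block, 96 positive and 108 negative calls were made (113 lost, 41 kept, 24 gained), and 196 of the 399 were called. Leaving out 1 library gave 77 to 122 positive and 103 to 157 negative calls, 104 to 147 lost, 36 to 62 kept, 21 to 43 gained and 18 to 32 reversed differences. It gave 6114 to 7105 olaparib calls in wild-type and 6543 to 7378 in knockout cells, 2347 to 3002 genotype calls in untreated and 1332 to 1882 in treated cells, and a slope of knockout on wild-type responses of 0.797 to 0.84. That slope was 0.855 with a filter of 5 FPKM, 0.806 without a filter, 0.814 with a pseudocount of 0.1 and 0.794 on transcript sums. On transcript sums the interaction changed sign without a call in limma for HSPA5 (-2.81, adjusted p = 0.691), PDIA4 (-0.064, 0.962) and UNG (-0.023, 0.944). The HSPA5 sum sat on 1 transcript, with 42.5, 0.0156 and 0.00524 FPKM in untreated wild-type libraries. The gene value there was 237, 232 and 229 FPKM, so the sum misses most of it. The cause of these differences was not tested.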

Other observations

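The highest and the lowest called interactions lay outside the rule for named genes, and they were singled out after their values were seen. COX7A2L, which encodes a factor for the assembly of respiratory chain supercomplexes, had means of 46.1 and 20.9 FPKM in untreated and treated wild-type cells and of 17.3 and 61.1 FPKM in knockout cells. Its interaction was 2.69, with an adjusted p of up to 0.0816 when 1 library was left out of the limma fit. A locus without a gene name had 9.13 and 55.1 FPKM in wild-type and 35.4 and 9.89 FPKM in knockout cells, with an interaction of -4.13. A further unnamed locus had 231 and 50 FPKM in wild-type and 177 and 204 FPKM in knockout cells, with an interaction of 2.62 and an adjusted p of up to 0.0905 without 1 library.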
